A study of Mus musculus with 4 samples.

Results

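The 8 genes described here encode transcription factors that direct effector and helper T cell fates: Prdm1 (the repressor Blimp-1), Irf4, Batf, Maf, Gata3, Rora, Tbx21 (T-bet) and Bcl6. They were taken by symbol from the deposited gene tables, which hold 28032 genes with an exon length, and all 8 were present and were among the 11113 genes that passed the filter on low counts. The RNA came from CD4+Foxp3+ regulatory T cells (Tregs) sorted from C57BL/6 mice aged 8 weeks. One library each was sequenced from the spleen and from tracheal lymph nodes of wild-type (WT) mice, and of mice labelled Csnk2b-/-. Csnk2b encodes the beta subunit of the kinase CK2, which regulates its catalytic subunits. The labels carry no driver for the deletion and do not say whether animals were pooled. The 2 libraries of a genotype are 1 per tissue and not repeats of one condition. They also give 2 library preparations, Trizol with TruSeq RNA v2 for samples 1 and 2 and an RNeasy micro kit with SMARTer cDNA and Nextera XT for samples 3 and 4. If these numbers follow the order of listing, tissue and preparation cannot be told apart.

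As background, Tregs carry Foxp3 as their defining factor and can add factors of the helper lineages. IRF4 and BATF bind DNA together downstream of T cell receptor signals and promote the effector Treg state, in which Blimp-1 supports interleukin-10 production. T-bet directs Th1 cells, GATA3 Th2 cells, and ROR-alpha acts in Th17 cells and is also used by tissue Tregs. c-MAF takes part in Th2, Th17 and follicular programs and in interleukin-10 production, and BCL6 directs follicular cells and opposes Blimp-1.

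The libraries held between 4737814 and 6750695 exon reads, and WT lymph node Tregs had reads in the fewest genes, 12157, compared with 14335 to 15515 in the others. Csnk2b itself had 649 exon reads (WT) and 148 (Csnk2b-deficient) from the spleen, and 667 and 283 from the lymph node. All 8 T cell and Treg markers examined, Foxp3 included, had reads in every library, with a summed level of 4291 to 8595 CPM (exon reads scaled to the effective size of each library). Foxp3 itself fell by 1.66 ± 0.25 on the log2 scale in Csnk2b-deficient Tregs (SE, 2 libraries per genotype, edgeR adjusted p = 0.0375), a call lost under median-of-ratios or upper-quartile scaling, a filter at 5 CPM or without the block. On uniquely placed reads it was -0.71 and was not called (adjusted p = 0.900). Markers of other cells were lower but unequal. The 13 myeloid and dendritic cell markers summed to 13.4 and 13.3 CPM in WT and Csnk2b-deficient spleen, and to 61.1 and 339 CPM in the lymph node, where Clec9a, S100a8 and S100a9 were at 0 in both libraries and Csf1r, Emr1 and Itgax were at 0 in WT. Most of these lymph node sums came from the lysozyme gene Lyz2 alone, at 45.7 and 283 CPM. The 9 B and plasma cell markers summed to 16.9 and 18.3 CPM in the spleen and 148 and 137 CPM in the lymph node, with Pax5 and Tnfrsf17 at 0 in all 4 libraries. The 7 CD8 T cell and NK cell markers summed to between 17.6 and 54.0 CPM. The part of such cells in the results below was not tested except where a value is given. Fewer cells of one type and less RNA per cell cannot be told apart in these bulk libraries.

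Promoters are shown for 3 of the 8 genes on which the results below turn. These are Prdm1, which had 0 exon reads in 1 library, and Batf and Bcl6, which differed between tissues in opposite directions. They are RefSeq sequences on GRCm38.p6, from 250 bases before to 50 bases after a listed start, and 7 of the 8 genes, all but Maf, had an entry. Capitals mark matches on either strand to short motifs of factors discussed here. AP-1 was searched as TGANTCA, and IRF as GAAA and GAAA with any 2 bases between. STAT and BCL6 proteins have a pattern in common, TTCNNNGAA, so a match does not tell them apart. GATA was searched as AGATAA and RUNX as TGTGGTT. Receptors of the ROR family were searched as AGGTCA and T-box factors as AGGTGTGA. BLIMP-1 was searched as GAAAGTGA, which has letters in common with the IRF pattern, and FOXO as TGTTTAC.
Prdm1 (chr10:44458699-44458998, minus strand): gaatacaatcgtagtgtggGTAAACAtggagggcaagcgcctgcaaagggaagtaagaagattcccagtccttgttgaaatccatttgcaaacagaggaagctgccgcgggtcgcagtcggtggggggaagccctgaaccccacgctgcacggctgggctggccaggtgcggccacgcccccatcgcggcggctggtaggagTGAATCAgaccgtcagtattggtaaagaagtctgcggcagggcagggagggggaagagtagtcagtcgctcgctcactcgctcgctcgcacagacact
Batf (chr12:85686470-85686769, plus strand): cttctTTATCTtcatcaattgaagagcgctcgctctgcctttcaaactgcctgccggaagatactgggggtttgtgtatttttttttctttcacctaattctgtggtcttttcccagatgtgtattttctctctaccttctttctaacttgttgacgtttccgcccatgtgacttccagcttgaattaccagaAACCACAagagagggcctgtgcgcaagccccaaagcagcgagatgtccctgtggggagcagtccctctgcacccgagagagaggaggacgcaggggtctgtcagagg
Bcl6, first listed start (chr16:23988803-23989102, minus strand): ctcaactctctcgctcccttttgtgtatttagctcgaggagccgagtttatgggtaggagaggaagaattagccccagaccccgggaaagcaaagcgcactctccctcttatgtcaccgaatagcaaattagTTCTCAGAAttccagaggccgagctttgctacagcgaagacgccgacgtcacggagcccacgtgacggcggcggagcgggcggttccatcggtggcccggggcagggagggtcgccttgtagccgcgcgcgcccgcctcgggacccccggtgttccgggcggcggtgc
Bcl6, second listed start (chr16:23981234-23981533, minus strand): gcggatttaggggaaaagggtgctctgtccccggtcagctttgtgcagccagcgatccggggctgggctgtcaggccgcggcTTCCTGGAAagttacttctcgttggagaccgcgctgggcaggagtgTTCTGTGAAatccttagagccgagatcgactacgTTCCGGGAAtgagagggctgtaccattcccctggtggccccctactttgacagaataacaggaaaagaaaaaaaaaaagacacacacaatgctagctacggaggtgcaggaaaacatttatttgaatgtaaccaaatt

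The Prdm1 promoter held 1 AP-1 match, 48 bases before the start, and 1 FOXO match. An AP-1 match of this kind was found in 7.81% of the 32851 promoters searched and a FOXO match in 3.65%. The Batf promoter held 1 GATA and 1 RUNX match, motifs found in 11.2% and 5.27% of all promoters. Bcl6 had 1 STAT or BCL6 match at its first start and 3 at its second, a pattern present in 8.30% of promoters. Of the others, Irf4 had 1 BLIMP-1 match and Gata3, Rora and Tbx21 had no match to these 9 patterns. Bases of C or G made up 67.3% of the Gata3 promoter and 49.7% of that of Batf, compared with a median of 52.7% over all promoters. These matches describe letters in a window and are not measurements of binding.

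Levels were first compared between the 8 genes within each library, per kilobase of exon. Batf, whose product is a short basic leucine zipper protein, stood first in all 4 libraries, followed by Maf, Gata3 and Irf4 in the same order. CPM per kilobase ranged from 65.7 to 193 for Batf, 36.2 to 48.6 for Maf, 29.3 to 39.5 for Gata3 and 15.8 to 26.9 for Irf4. The ranges of Maf and Gata3 overlapped, and Batf and Irf4 were separate from their neighbours. Below them Rora had 6.91 to 12.1, Prdm1 0 to 10.4, Bcl6 1.17 to 6.85 and Tbx21 0.393 to 5.84. Prdm1 overlapped the other 3 of these, and Bcl6 overlapped Tbx21, while Rora lay above both. Among genes with any exon read, Batf stood above 95.7% to 97.1% of them in each library, and Tbx21 above 48.2% and 53.1% in the spleen but 10.2% and 24.4% in the lymph node.

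**Figure D1:**
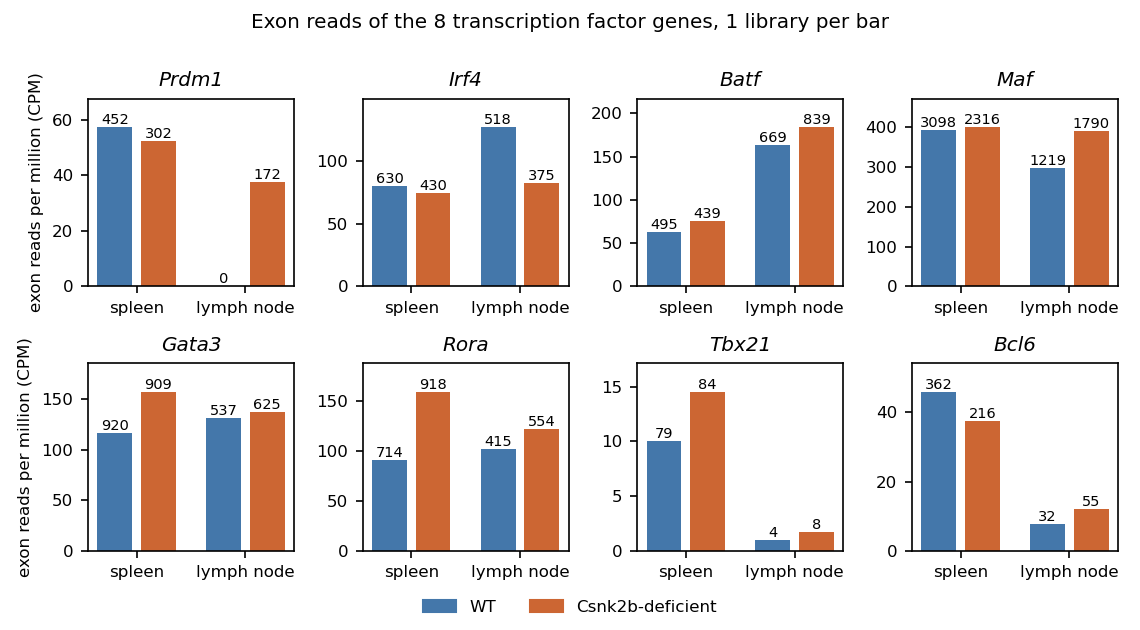
Exon reads scaled to library size (CPM, linear axis from 0) of each gene, with 1 bar per library, WT in blue and Csnk2b-deficient in orange, and the number of exon reads above each bar. Prdm1 had 0 reads in WT lymph node Tregs and 172 to 452 in the other libraries, while Tbx21 and Bcl6 were lower in both lymph node libraries and Batf higher.

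The genotype comparison addressed whether levels of these messengers differ between WT Tregs and those labelled Csnk2b-deficient. None of the 8 passed the threshold (edgeR quasi-likelihood test with tissue as a block, adjusted p below 0.05 over all genes), and none did with DESeq2 (0 at an unadjusted p below 0.05) or limma-voom (1). Over all 11113 genes the same test called 16, or 0.144% (0.126% higher and 0.0180% lower). With so few calls in all, 0 of 8 does not set these genes apart. At an unadjusted p below 0.05 there was 1 of the 8, Rora, compared with 542 genes, or 4.88%, over all. The median log2 fold change of the 8 was 0.23, compared with 0.0087 over all genes tested. In both tissue pairs 5 of the 8 were higher in Csnk2b-deficient Tregs, 1 was lower and 2 had opposite directions, while over all genes tested 27.5% were higher in both pairs and 29.2% lower. Each pair is 1 library per genotype, so pair ratios carry no replicate check, and intervals given for them (95%, exact binomial) cover counting error only. Among the genes higher in both pairs, this interval included 1 for Maf in the spleen and for Gata3 and Tbx21 in the lymph node. It also included 1 for Irf4, the gene lower in both, in the spleen. The 8 genes were chosen with earlier results of these data known, so these shares cannot be read as enrichment.

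Rora, which encodes the nuclear receptor ROR-alpha, lies on chromosome 9 (68501593 to 69236053, mm9). Spleen Tregs gave 714 exon reads (90.6 CPM) when WT and 918 (159 CPM) when Csnk2b-deficient. Lymph node Tregs gave 415 (101 CPM) and 554 (121 CPM), respectively. Both Csnk2b-deficient libraries thus stood above both WT libraries. The ratio was 1.75 (1.59 to 1.94) in the spleen and 1.20 (1.05 to 1.36) in the lymph node. Fitted over both tissues, its log2 change was 0.54 ± 0.24 (SE, 2 libraries per genotype), with an unadjusted edgeR p of 0.0498 and an adjusted p of 0.890. It ranked 541st by p among all genes tested, and its adjusted p ran from 0.565 to 1.00 over 12 alternative fits.

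Irf4, the interferon regulatory factor that responds to antigen receptor strength, lies on chromosome 13 (30841095 to 30858796, mm9) and was the gene lower in both pairs. Its exon reads were 630 (79.9 CPM) and 430 (74.4 CPM) for WT and Csnk2b-deficient spleen. They were 518 (127 CPM) and 375 (82.2 CPM) for WT and Csnk2b-deficient lymph node. The high value was that of WT lymph node Tregs, and the other 3 libraries lay close together, so the genotypes overlapped across tissues. The ratio was 0.931 (0.822 to 1.05) in the spleen, an interval that includes 1, and 0.649 (0.567 to 0.743) in the lymph node. For Irf4 the fitted log2 change was -0.36 ± 0.26 (SE, edgeR adjusted p = 0.890).

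Batf, the AP-1 family partner of IRF4, lies on chromosome 12 (87027619 to 87050037, mm9). WT spleen Tregs had 495 exon reads (62.8 CPM) and their Csnk2b-deficient counterparts 439 (75.9 CPM). WT lymph node Tregs had 669 (164 CPM) and their counterparts 839 (184 CPM). Within each tissue the Csnk2b-deficient library was slightly higher, by 1.21 (1.06 to 1.38) in the spleen and 1.12 (1.02 to 1.25) in the lymph node, and the tissues were further apart than the genotypes. For Batf the fitted log2 change was 0.22 ± 0.23 (SE, edgeR adjusted p = 0.909).

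Prdm1, which encodes the zinc finger repressor Blimp-1, lies on chromosome 10 (44156983 to 44248307, mm9). Both spleen libraries held it, with 452 exon reads (57.3 CPM) for WT and 302 (52.2 CPM) for Csnk2b-deficient Tregs. WT lymph node Tregs had 0 exon reads, and Csnk2b-deficient lymph node Tregs 172 (37.7 CPM). The spleen libraries differed by a ratio of 0.911 (0.785 to 1.06), whose interval includes 1. In the lymph node the Csnk2b-deficient library was at least 51.4-fold higher, with WT set at a floor of 3 reads, or 0.733 CPM. This floor leaves out the counting error of the 172 reads, and the exact interval of the ratio starts at 41.4. Beyond the exons, the Prdm1 locus had 4 reads (WT) and 37 (Csnk2b-deficient) from the lymph node. Its fitted log2 change of 2.01 ± 1.68 (SE, edgeR adjusted p = 0.895) is no bound, and with every library kept it ran from 0.18 with limma-voom to 4.85 with DESeq2. With WT lymph node Tregs left out and no block it was -0.32.

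So complete a lack of reads was rare in that library. Of 3961 genes with at least 50 CPM in both spleen libraries, a limit chosen after the Prdm1 value was seen, 2 had 0 reads in WT lymph node Tregs, Prdm1 and B4galnt4. In the Csnk2b-deficient lymph node 1 did, Ssbp4. Among all genes tested, 2 had 0 reads in WT and at least 172 in the Csnk2b-deficient lymph node, Prdm1 and Atp6v0d2 (206 reads), and 0 genes had the reverse pattern at 100 reads or more. Some marker genes differed in the same pair. Igj, the J chain gene of plasma cells, which also express Prdm1, had 0 and 164 reads in the WT and Csnk2b-deficient lymph node libraries, compared with 4 and 7 in the spleen libraries, where Prdm1 had 452 and 302. Other B cell genes were mixed, as Cd79b had 599 and 412 reads in the lymph node pair and Cd79a 7 and 16. Of the 9 B and plasma cell markers, 3 had reads in the WT library of this pair and 7 in its counterpart. These markers summed to 148 and 137 CPM, most of it from Cd79b at 146 and 90.3 CPM, so the sums say little about the others. Lyz2, a lysozyme gene of myeloid cells, had 187 and 1291 reads from the lymph node and 20 and 19 from the spleen. Their part in the Prdm1 difference was not tested.

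Maf, on chromosome 8 (118206842 to 118231694, mm9), had the most reads of the 8. It encodes c-MAF, a basic leucine zipper factor. From spleen Tregs came 3098 exon reads (393 CPM) of the WT and 2316 (401 CPM) of the Csnk2b-deficient genotype, and from lymph node Tregs 1219 (298 CPM) and 1790 (392 CPM). WT lymph node Tregs were the low library and the other 3 lay within a narrow band. The ratio was 1.02 (0.966 to 1.08) in the spleen and 1.32 (1.22 to 1.42) in the lymph node, and the fitted log2 change was 0.21 ± 0.19 (SE, edgeR adjusted p = 0.895).

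Gata3, the Th2 factor that Tregs also use, lies on chromosome 2 (9778705 to 9811661, mm9). The spleen pair had 920 exon reads (117 CPM, WT) and 909 (157 CPM, Csnk2b-deficient). The lymph node pair had 537 (131 CPM) and 625 (137 CPM). The ratio was 1.35 (1.23 to 1.48) in the spleen and 1.04 (0.929 to 1.17) in the lymph node, and the difference between tissues was not tested. For Gata3 the fitted log2 change was 0.25 ± 0.23 (SE, edgeR adjusted p = 0.895).

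Tbx21, the Th1 factor gene, lies on chromosome 11 (96959385 to 96976645, mm9) and was the least read of the 8. Spleen Tregs gave 79 exon reads (10.02 CPM, WT) and 84 (14.5 CPM, Csnk2b-deficient). Lymph node Tregs gave 4 and 8 reads (0.978 and 1.75 CPM), fewer than either spleen library. The ratios of 1.45 (1.05 to 2.00) and 1.79 (0.481 to 8.14) pointed the same way, but the lymph node counts could not show a difference of that size. For Tbx21 the fitted log2 change was 0.65 ± 0.88 (SE, edgeR adjusted p = 0.934).

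Bcl6, the follicular factor gene, lies on chromosome 16 (23965138 to 23988938, mm9). WT spleen Tregs had 362 exon reads (45.9 CPM), and Csnk2b-deficient spleen Tregs 216 (37.4 CPM). The lymph node libraries had 32 (7.82 CPM, WT) and 55 (12.1 CPM, Csnk2b-deficient). The directions were opposite, with ratios of 0.814 (0.684 to 0.966) in the spleen and 1.54 (0.980 to 2.46) in the lymph node. For Bcl6 the fitted log2 change was 0.12 ± 0.42 (SE, edgeR adjusted p = 0.977), and its sign turned without the block, at -0.12, and with limma-voom, at -0.14. Prdm1 and Bcl6 encode factors known to repress each other's genes, and here both had ratios below 1 in the spleen and above 1 in the lymph node. The counting intervals of Prdm1 in the spleen and of Bcl6 in the lymph node included 1, so these 2 directions are not resolved.

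**Figure D2:**
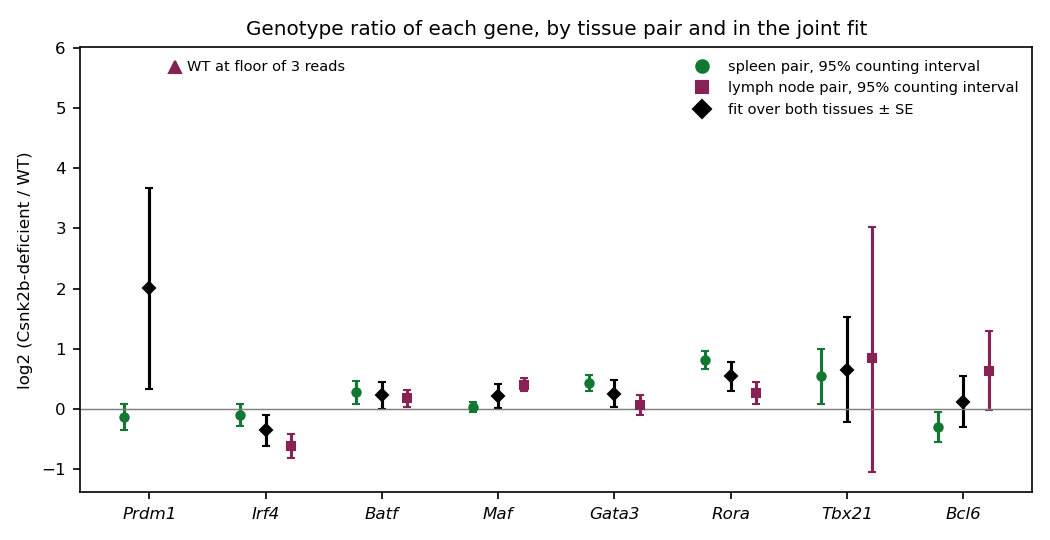
Log2 ratio of Csnk2b-deficient to WT for each gene, with the spleen pair as green circles and the lymph node pair as purple squares (bars, 95% counting intervals) and the joint fit as black diamonds (bars, SE). The triangle is the ratio of 51.4 for Prdm1 in the lymph node with WT, at 0 reads, set to the floor of 3, and not an interval limit, and the other pair ratios lie within 1 log2 unit of 0.

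The same fit gave the difference between lymph node and spleen Tregs at equal genotype. Batf rose by 1.33 ± 0.23 on the log2 scale in the lymph node (SE, n = 2 libraries per tissue, edgeR adjusted p = 0.000736), and Bcl6 and Tbx21 fell by 2.08 ± 0.43 and 3.17 ± 0.93 (adjusted p = 0.00244 and 0.0157). This is 3 of 8 genes called, compared with 45.4% of all genes tested (23.3% higher and 22.2% lower), so the share is no greater than the background. Batf was 2.60 times (2.32 to 2.93) as high in lymph node as in spleen Tregs in WT and 2.42 times (2.16 to 2.72) in Csnk2b-deficient mice. Bcl6 was 5.87 times (4.08 to 8.71) as high in the spleen in WT and 3.10 times (2.30 to 4.25) in Csnk2b-deficient mice, and Tbx21 10.2 times (3.85 to 38.5) and 8.28 times (4.02 to 19.8).

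Irf4, Maf, Gata3 and Rora were not called between tissues, with log2 differences of 0.41 ± 0.26, -0.21 ± 0.19, -0.01 ± 0.23 and -0.11 ± 0.24 (edgeR adjusted p = 0.219, 0.391, 0.963 and 0.730). Prdm1 had -2.66 ± 1.68 (adjusted p = 0.265), with WT at least 78.2-fold higher in the spleen than at the floor of 3 reads in the lymph node (the exact interval starts at 63.3), and Csnk2b-deficient Tregs 1.39 times (1.15 to 1.68) as high in the spleen. The calls of Batf, Bcl6 and Tbx21 were lost without WT spleen Tregs and the block (adjusted p = 0.0747, 0.0944 and 0.142), and that of Tbx21 also without Csnk2b-deficient spleen Tregs (0.292). Calls were gained without Csnk2b-deficient lymph node Tregs and the block for Irf4 at 0.67, Maf at -0.45 and Prdm1 at -11.35 (edgeR adjusted p = 0.00517, 0.0202 and 0.000106), and without WT lymph node Tregs for Prdm1 at -0.52 (0.0307). Over 12 alternatives the adjusted p ran from 5.22e-06 to 0.0747 for Batf, 2.45e-05 to 0.0944 for Bcl6 and 0.00309 to 0.292 for Tbx21.

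**Figure D3:**
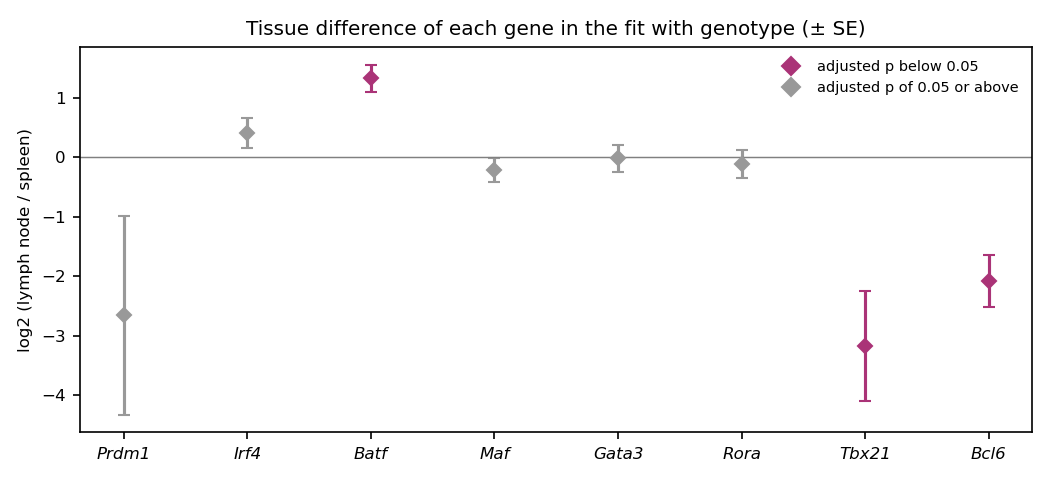
Log2 difference of lymph node from spleen Tregs for each gene in the fit with genotype (diamonds, with bars of 1 SE), in purple where the adjusted p was below 0.05 and in grey otherwise. Batf lies above 0 at 1.33, Bcl6 and Tbx21 lie below at -2.08 and -3.17, and Prdm1 has the widest bar.

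The tables also count reads across splice junctions and reads inside a gene but outside its exons, neither of which entered the fits. Batf reads outside exons numbered 225 (WT) and 237 (Csnk2b-deficient) from spleen Tregs, and 102 and 305 from lymph node Tregs. They thus differed 2.68 times (2.14 to 3.39) in the lymph node pair, where exon reads differed 1.12 times. Their share of Batf gene reads was 13.2% (10.9% to 15.8%, exact binomial) for WT and 26.7% (24.1% to 29.3%) for Csnk2b-deficient lymph node Tregs, while over all genes it was 22.5% and 21.5%. In the spleen the Batf share was 31.3% and 35.1%. Gata3 reads outside exons also differed by genotype in the spleen, by 1.67 (1.47 to 1.90), and in the lymph node by 1.19 (0.968 to 1.46). For Rora these ratios were 1.45 (1.08 to 1.96) and 1.16 (0.999 to 1.35), in the direction of its exon reads. Maf had 1.21 (1.01 to 1.45) and 1.69 (1.32 to 2.19). Tbx21 had 0 and 19 such reads in the WT and Csnk2b-deficient lymph node libraries, beside 4 and 8 exon reads.

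By tissue, the Rora share outside exons was 11.3% and 9.56% for the WT and Csnk2b-deficient spleen and 43.0% and 42.2% for the lymph node. It thus moved with tissue, or with library preparation if that follows tissue, and not with genotype. The 2 listed features within the span of Rora had 0 exon reads in every library. Irf4 moved the other way, with 13.2% and 13.7% for the spleen and 4.43% and 5.30% for the lymph node. Its reads across junctions were also fewer, 37 and 21 from the spleen and 3 and 7 from the lymph node, or 5.87% and 4.88% of exon reads against 0.579% (0.120% to 1.68%) and 1.87% (0.754% to 3.81%). Over all genes that share was 18.5% to 19.6%. The median coverage of Irf4 exons in the deposited tables was 7 and 4 for spleen Tregs and 3 and 3 for lymph node Tregs, and that of Batf 28 and 25 against 35 and 45.

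**Figure D4:**
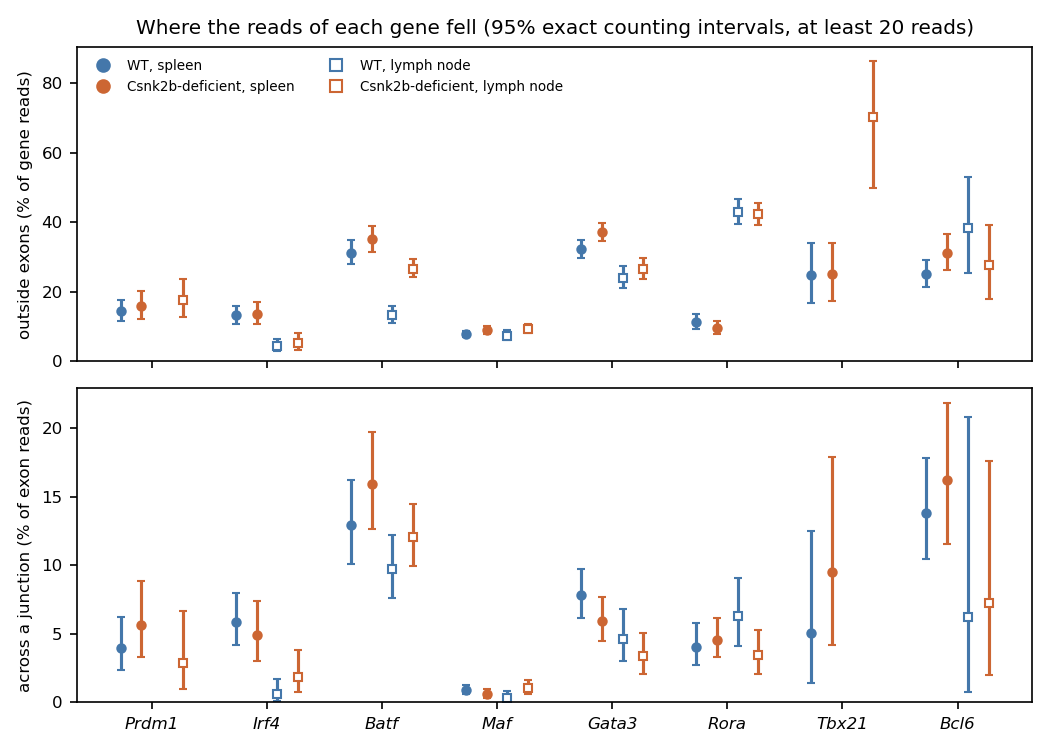
Percent of gene reads outside exons (upper panel) and percent of exon reads across a splice junction (lower panel) for each gene and library with at least 20 reads (filled circles, spleen; open squares, lymph node; blue, WT; orange, Csnk2b-deficient; bars, 95% exact intervals). Rora lies near 10% outside exons in the spleen and above 40% in the lymph node, and the Batf share in WT lymph node Tregs lies below the other 3.

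Placement of reads touched Maf and Gata3. Uniquely placed reads made up 66.3% and 70.0% of Maf exon reads from the WT and Csnk2b-deficient spleen and 96.0% and 92.9% from the lymph node, and, in the same order, 81.2%, 78.3%, 97.4% and 99.5% of those of Gata3. On uniquely placed reads the tissue difference of Maf turned from -0.21 to 0.29 on the log2 scale and that of Gata3 from -0.01 to 0.32, and neither was called. The other 6 genes had at least 98.3% of their exon reads placed uniquely wherever they had reads. Prdm1, Irf4, Batf, Tbx21 and Bcl6 overlapped no other listed gene, and the genes within the spans of Maf, Gata3 and Rora had at most 2 exon reads in any library.

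Relatives of the 8 genes give the levels of close family members. Of 16 listed, 15 were in the tables and 7 were tested, and none was called by genotype with edgeR, DESeq2 or limma-voom (0 at an unadjusted p below 0.05 with each, and 5 with an adjusted p in DESeq2). Gata1, a factor of red cell and mast cell lineages, had 155 (WT) and 60 (Csnk2b-deficient) exon reads from the spleen and 220 and 219 from the lymph node (fitted log2 change of -0.53 ± 0.38, edgeR adjusted p = 0.890). Eomes, the T-box relative of Tbx21, had 39, 10, 0 and 15 reads in that order, and Irf8 had 33, 27, 7 and 0. Mafk, a small MAF protein gene, had 276, 160, 9 and 28 reads. Its tissue difference of -2.99 ± 0.60 was called (edgeR adjusted p = 0.00193), as were those of Prdm2 (-1.40 ± 0.23) and Gata1 (1.82 ± 0.39). Prdm10 had 144, 93, 18 and 73 reads. Batf2, Batf3, Maff, Gata2, Rorb, Tbx1 and Bcl6b had between 0 and 13 reads per library.

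Of 14 measured genes for binding partners of these factors, 0 were called by genotype and 0 had an unadjusted p below 0.05, with edgeR or limma-voom, and the same held for the 13 with an adjusted p in DESeq2. The median log2 fold change was -0.03. Those of highest level were the corepressor gene Ncor1 (-0.34 ± 0.19), Cbfb (0.20 ± 0.22), the partner of RUNX proteins, and the BCL6 corepressor gene Bcor (-0.26 ± 0.23). Of 15 effector Treg genes 9 were higher in both pairs and 3 lower, with a median of 0.42, and 1 rose, Itgae, the CD103 integrin chain (2.24 ± 0.21, edgeR adjusted p = 0.00236). Over all genes tested 27.5% were higher in both pairs and 29.2% lower, the median was 0.0087, and 0.126% were called higher. At an unadjusted edgeR p below 0.05 were 6 of these 15, 3 of the 8 Th1, 3 of the 6 Th2 and 7 of the 10 naive and memory genes described below, beside 4.88% over all genes. The lists were chosen with earlier results of these data known, so shares above that of all genes cannot be read as enrichment. The most abundant others on the effector Treg list were Tnfrsf4 at 0.13 ± 0.16, Ctla4 at -0.16 ± 0.19 and Icos at 0.42 ± 0.22.

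Of 8 measured Th1 genes 2 rose, the interleukin-18 receptor chains Il18r1 (1.84 ± 0.22, edgeR adjusted p = 0.00656) and Il18rap (2.22 ± 0.29, adjusted p = 0.0124). The share called higher over all genes tested was 0.126%, and the counts on these chosen lists cannot be read as enrichment. Cxcr3, a chemokine receptor gene and the most abundant of them, had 1.30 ± 0.31 and was not called by edgeR. These changes compare with 0.65 ± 0.88 for Tbx21. Of 6 measured Th2 genes 1 rose, Il1rl1, the interleukin-33 receptor (2.24 ± 0.36, adjusted p = 0.0468), beside 0.25 ± 0.23 for Gata3. The interleukin-4 receptor gene Il4ra had -0.24 ± 0.22 and the chemokine receptor gene Ccr4 0.65 ± 0.30. Of 2 measured Th17 genes, Il21r at -0.05 ± 0.21 and the chemokine receptor gene Ccr6 at -0.83 ± 0.28, and of 9 measured follicular genes, 0 were called, with 1 and 2 at an unadjusted p below 0.05, by edgeR, DESeq2 and limma-voom alike. The follicular genes of highest level were Slamf6 (0.70 ± 0.19), P2rx7 (0.33 ± 0.20) and Pdcd1 (0.31 ± 0.20). Among 10 measured factors of naive and memory cells 1 rose, Id2 (1.56 ± 0.24, adjusted p = 0.0367), and 6 were lower in both pairs, with Tcf7 at 0.62 ± 0.27, Foxp1 at -0.62 ± 0.19 and Foxo1 at -0.90 ± 0.20. DESeq2 and limma-voom called the same 5 genes and also Gzmb, Cxcr3, Foxo1 and Bach2. All 5 genes that rose on these lists lost their calls without the block and in the 4 fits that leave out a library. Under median-of-ratios size factors all but Itgae also lost them (adjusted p = 0.0611 for Il18r1, 0.0890 for Il18rap, 0.298 for Il1rl1 and 0.193 for Id2). Il18rap, Il1rl1 and Id2 lost theirs on uniquely placed reads, and Il1rl1 and Id2 with upper-quartile scaling and a filter at 5 CPM.

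**Figure D5:**
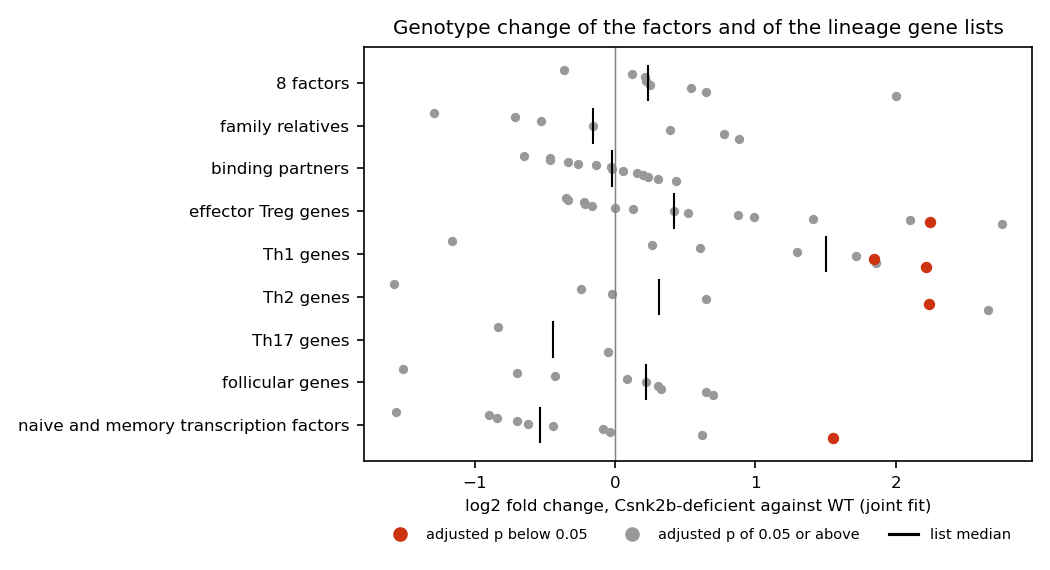
Log2 fold change of Csnk2b-deficient against WT Tregs in the joint fit for each measured gene of the 8 factors and of each lineage list (points, 1 per gene; black lines, list medians; red, adjusted p below 0.05). The 8 factors lie between -0.36 and 2.01 with none in red, and red points appear on the effector Treg, Th1, Th2 and naive and memory lists.

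Genes whose log2 CPM, centred over the 4 libraries, lay nearest to that of each factor were taken from 9643 candidates with a mean of at least 5 CPM. The likeness is the largest absolute difference in any library, and with 4 libraries of 2 tissues it is a description only. Maf was most like Cnot6l (0.017 log2 units) and 4632419I22Rik (0.034), and Bcl6 like Phf21a (0.044) and C030006K11Rik (0.050). Batf was most like Ankrd32 (0.056) and 1500031L02Rik (0.066), Irf4 like Ahsa2 (0.057) and Camk1d (0.062), and Gata3 like Sorl1 (0.053) and Gng2 (0.072). Rora was nearest to Osbpl3 (0.13) and Cnrip1 (0.14), and Tbx21 to Psd (0.14) and Rps2 (0.16). For Prdm1 the distance was wider, at 1.02 for Sntb2, which also had 0 CPM in WT lymph node Tregs and 10.7 CPM in the Csnk2b-deficient ones.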

How the data were processed

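Messenger RNA of sorted Tregs was sequenced on an Illumina MiSeq, per the series' design text. The submitters' processing notes list CASAVA 1.8.2 and mm9. Not given in the sources used here are the aligner, annotation and strand setting. Per the file headers, the authors' tables hold read counts per gene (exon, gene, junction and uniquely placed reads) and a median coverage. Features without an exon length, all at 0 exon reads, were dropped (9551 of 37583). Total exon reads were tested with edgeR 4.0.16 under R 4.3.3 (robust quasi-likelihood test on tissue plus genotype after TMM scaling and filterByExpr, Benjamini-Hochberg adjustment over 11113 genes). The single residual degree of freedom measures how far the genotype changes of both tissues differ, and is moderated across genes (1 residual degree of freedom, 4 libraries). P-values therefore do not measure spread between like libraries or animals. The script was tested on simulated data. CPM are reads over TMM-scaled library sizes; log2 CPM used a prior count of 2. Each SE was taken from a fold change and its F statistic.

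The replicate numbers pair libraries by tissue, per the labels, and deviations from genotype means correlated at 0.783 within a number. Libraries of a pair differed by chi-squares of 7.54 and 30.3 per degree of freedom, far beyond sampling noise. Alternatives were other scalings and filters, uniquely placed reads, DESeq2 1.42.0, limma-voom (limma 3.58.1), no block and leaving out libraries. The members and lists were chosen with earlier results of these data known. Named genes were the 8 members, Csnk2b, all relatives with any read, genes of each list past the threshold, the 3 of highest mean level per list and the 2 genes most like each member; B4galnt4, Ssbp4, Atp6v0d2 and the marker genes given by name were chosen after their values were seen. A few genes that this rule names are not reported here.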

Additional observations from a re-analysis of the deposited data

Results flagged for a closer look

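Prdm1 and Bcl6 had opposite genotype directions in the tissues. For Prdm1 the log2 ratio of Csnk2b-deficient to WT Tregs (prior count of 2) was -0.13 for the spleen pair and 6.73 for the lymph node pair, a difference of 6.86 that rests on the 0 reads of WT lymph node Tregs. For Bcl6 the ratios were -0.29 and 0.60, a difference of 0.90. With 1 library per genotype and tissue, neither difference was tested. The counting intervals of Prdm1 in the spleen and of Bcl6 in the lymph node included a ratio of 1.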

How the results depend on the processing

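Fits of 4 libraries with 1 residual degree of freedom limit every p-value here, and Tbx21 (4 and 8 reads) and Prdm1 (0 reads) limit the lymph node ratios. By genotype 0 of the 8 genes were called under each of 12 alternatives. Genes called in all numbered 16 with the replicate block and 0 with no replicate block, 4 under median-of-ratios size factors, 7 on uniquely placed reads, 54 with DESeq2, 64 with limma-voom, 111 with no filter, and 0 to 1 with a library left out. Leaving out a library meant dropping the block, since 3 libraries with tissue leave no residual degrees of freedom. The genotype change then ran from -0.32 to 10.77 for Prdm1, -0.53 to 1.08 for Batf, -1.67 to 3.06 for Tbx21 and -1.18 to 1.69 for Bcl6, so these 4 reversed (also Batf at -0.31, Tbx21 at -0.27 and Bcl6 at -0.87 in a second such fit). In single pairs the log2 ratios were -0.13 (spleen) and 6.73 (lymph node) for Prdm1, -0.10 and -0.62 for Irf4, -0.29 and 0.60 for Bcl6, and 0.81 in the spleen for Rora. Irf4 (-0.67 to -0.0029), Maf, Gata3 and Rora kept their sign in all 12. The change of Bcl6 reversed also with no replicate block (-0.12) and limma-voom (-0.14). Between tissues, 3 of the 8 were called in all 8 alternatives with every library, and 0 to 6 with a library left out, with 2186 to 7874 genes called in all (2322 without Csnk2b-deficient spleen Tregs). Tissue differences without a library ran from -11.35 to -0.52 for Prdm1, 0.11 to 0.67 for Irf4, 1.16 to 1.43 for Batf, -0.45 to 0.0063 for Maf, -0.26 to 0.17 for Gata3, -0.54 to 0.26 for Rora, -3.66 to -2.76 for Tbx21 and -2.45 to -1.77 for Bcl6. Calls were lost at -3.41 and -1.93 (Tbx21 and Bcl6, without WT spleen Tregs) and -2.88 (Tbx21, without Csnk2b-deficient spleen Tregs). On uniquely placed reads the tissue difference was 0.29 for Maf and 0.32 for Gata3. For Gata3 it was also 0.024 without WT lymph node Tregs, 0.0058 under median-of-ratios size factors, 0.0095 with a filter at 5 CPM and 0.0059 with DESeq2. The spleen ratio of Maf on uniquely placed reads was 0.11 in place of 0.03, and the other 79 pair ratios recomputed under another prior count, scaling or read type stayed within their counting interval. The causes of these shifts were not tested.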
